A study of Mus musculus with 60 samples.

Results

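The Krüppel-like factors (KLFs) are zinc finger transcription factors that bind GC boxes and CACCC elements. The 9 genes described here, Klf2, Klf3, Klf4, Klf6, Klf7, Klf9, Klf10, Klf12 and Klf13, were taken by name from the 55414 genes of the table, and each matched 1 row. They were followed through 60 RNA-seq libraries of CD8 T cells from the spleens of NOD mice. All cells carried the transgenic OT-I T cell receptor, which recognises an ovalbumin peptide, and had been purified as naive CD8 T cells by negative selection. The mice were Sh2b3+/+ (wild type) or Sh2b3-/- (knockout). SH2B3 is an adaptor protein known as a brake on cytokine receptor signalling through JAK2. Resting cells (0 h, 11 libraries per genotype) were compared with cells stimulated for 2 h, 6 h or 24 h (5 libraries per genotype each). The stimulus was plate-bound anti-CD3 at 10 µg/mL with soluble anti-CD28 at 5 µg/mL. A further group per genotype received blocking anti-IL-2 at 10 µg/mL during the 24 h (4 libraries each). The loss of Sh2b3 is carried by the whole animal as far as the labels say, and they do not tell whether libraries of a group came from separate mice or cultures. The p-values below therefore measure the spread between these libraries, part of which may be technical.

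In quiescent T cells, KLF2 and KLF4 are known as brakes on proliferation, and KLF2 also drives the receptors that let naive cells circulate through lymph nodes. KLF2 acts downstream of the transcription factor FOXO1 and is lost after T cell receptor signalling, while IL-2 and PI3K signalling are known to affect its target S1pr1. KLF3 and KLF12 act mainly as repressors through the corepressor CtBP, KLF6 and KLF7 form a pair with closely related zinc fingers, KLF9 is a classic glucocorticoid-inducible factor, KLF10 is induced by TGF-beta, and KLF13 is known in T cells as a late activator of the chemokine gene Ccl5.

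Promoter sequence is shown for Klf2, Klf4 and Klf6, whose levels fell during stimulation, and for Klf9, whose level rose. Each run holds the 250 bases upstream of the gene's start, in the direction of transcription, from RefSeq on GRCm38.p6; 8 of the 9 genes had an entry, all but Klf10. Capitals mark matches on either strand to the CACCC element, the GC box GGGCGG, the forkhead core GTAAACA, the cAMP response core TGACG or the MEF2 box; the CArG box was searched as well.
Klf2 (chr8:72318812-72319061, plus strand): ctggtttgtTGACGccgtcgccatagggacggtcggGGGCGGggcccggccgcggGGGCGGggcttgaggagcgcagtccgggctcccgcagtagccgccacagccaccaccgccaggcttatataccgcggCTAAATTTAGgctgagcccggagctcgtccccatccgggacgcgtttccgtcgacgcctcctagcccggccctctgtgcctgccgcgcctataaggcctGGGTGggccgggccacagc
Klf4 (chr4:55532476-55532725, minus strand): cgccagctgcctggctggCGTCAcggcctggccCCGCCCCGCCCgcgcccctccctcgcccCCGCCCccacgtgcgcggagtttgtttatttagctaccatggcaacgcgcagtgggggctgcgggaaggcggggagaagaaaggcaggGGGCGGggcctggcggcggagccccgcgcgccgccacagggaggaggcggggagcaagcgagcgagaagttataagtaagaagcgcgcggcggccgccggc
Klf6 (chr13:5861239-5861488, plus strand): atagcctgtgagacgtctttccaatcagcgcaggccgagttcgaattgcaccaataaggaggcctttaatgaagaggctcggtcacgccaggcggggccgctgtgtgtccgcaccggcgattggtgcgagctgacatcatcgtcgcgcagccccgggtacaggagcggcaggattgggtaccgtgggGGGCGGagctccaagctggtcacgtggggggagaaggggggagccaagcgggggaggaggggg
Klf9 (chr19:23140976-23141225, plus strand): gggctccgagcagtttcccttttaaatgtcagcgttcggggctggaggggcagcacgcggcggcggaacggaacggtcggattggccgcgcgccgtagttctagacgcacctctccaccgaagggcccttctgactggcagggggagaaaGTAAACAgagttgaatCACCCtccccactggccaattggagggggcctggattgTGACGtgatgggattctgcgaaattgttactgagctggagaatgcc
The Klf2 sequence, 71.2% G and C, held the MEF2 box CTAAATTTAG at positions -118 to -109, a motif found in 2.917% of 32841 mouse promoter windows of the same length. It also held the GC box at 2 places and 1 match each to the cAMP response core and the CACCC element. In Klf4 the GC box matched at 4 places, some sharing a base, and the cAMP response core at 1, whereas Klf6 held only the GC box, at 1 place. Klf9 was the only one of the 8 with the forkhead core, the letters bound by FOXO and related factors, which 3.167% of all windows held. It also held the CACCC element and the cAMP response core. The CACCC element and the GC box are common, in 52.02% and 32.75% of windows, and the cAMP response core was in 17.77%. No CArG box, present in 1.468% of windows, was found in the 8 promoters. These matches describe letters only and no binding was measured here.

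The libraries held 13987029 to 35476519 counts each (median 17994613). Levels are given as CPM, counts divided by the TMM-scaled library size, and differences as log2 with their standard error (SE). Differences were tested with edgeR's quasi-likelihood test with Benjamini-Hochberg adjustment over all genes, with a threshold of 0.05 for calling a gene. Sh2b3 averaged 69.7 to 151.97 CPM in the wild type groups and 10.9 to 22.5 CPM in the knockout groups. The lowest wild type library, at 64.6 CPM, lay above the highest knockout library, at 31.4 CPM. Markers of CD8 T cells summed to 3067 to 9156 CPM over the 60 libraries. Those of B cells summed to 5.8 to 68.8 CPM, monocytes and macrophages 2.6 to 19.2, neutrophils 0 to 3.9 and dendritic cells 0.3 to 21.99. Markers of NK cells summed to 6.7 to 48.1 CPM, CD4 and regulatory T cells 4.3 to 25.99, erythroid cells 2.7 to 150.3, platelets 0.6 to 10.4, and endothelium and stroma 52.2 to 195.5. No marker gene was at 0 in every library. The library numbers fall into 4 runs, which are called sets A, B, C and D here and have no description in the labels. Cells at 2 and 6 h are in set A only, those at 24 h in sets B and C, those with anti-IL-2 in set D, and resting cells in sets A, B and C (5, 2 and 4 libraries per genotype). The set was a term of each fit that held more than 1 set, except those with anti-IL-2 libraries, which had no set term. The text gives the within-set values that changed a call.

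Resting wild type cells held far more Klf2 transcript per length than any other of the 9. In CPM alone the lead was smaller, with Klf2 averaging 1166, Klf13 529, Klf6 402 and Klf3 354 CPM. The length used is that of all annotated exons together, 1847 bases for Klf2 and 7531 for Klf13. Divided by exon length, the level of Klf2 was 631 ± 194 CPM per kb (SD, n = 11), followed by Klf6 at 91.6 ± 26.7, Klf13 at 70.2 ± 9.15 and Klf3 at 31.5 ± 4.17 CPM per kb. Klf7 stood at 8.72 ± 1.08, Klf4 at 7.54 ± 4.74, Klf10 at 3.94 ± 1.23, Klf9 at 0.588 ± 0.259 and Klf12 at 0.0317 ± 0.0384 CPM per kb. The ranges of Klf6 and Klf13 overlapped across libraries, as did those of Klf7 with Klf4 and of Klf4 with Klf10. The order of Klf6 and Klf13, and that of Klf7 and Klf4, differed between libraries and is not beyond the spread. Klf4 exceeded Klf10 per length within each resting wild type library. All other neighbours in the order were apart in every wild type library. Klf12 was at or near 0 throughout, between 0 and 2.22 CPM and at most 34 counts in a library, and it passed the filter on low counts in only some fits. With all libraries edgeR called it in none of them, and no fold is given for it.

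**Figure D1:**
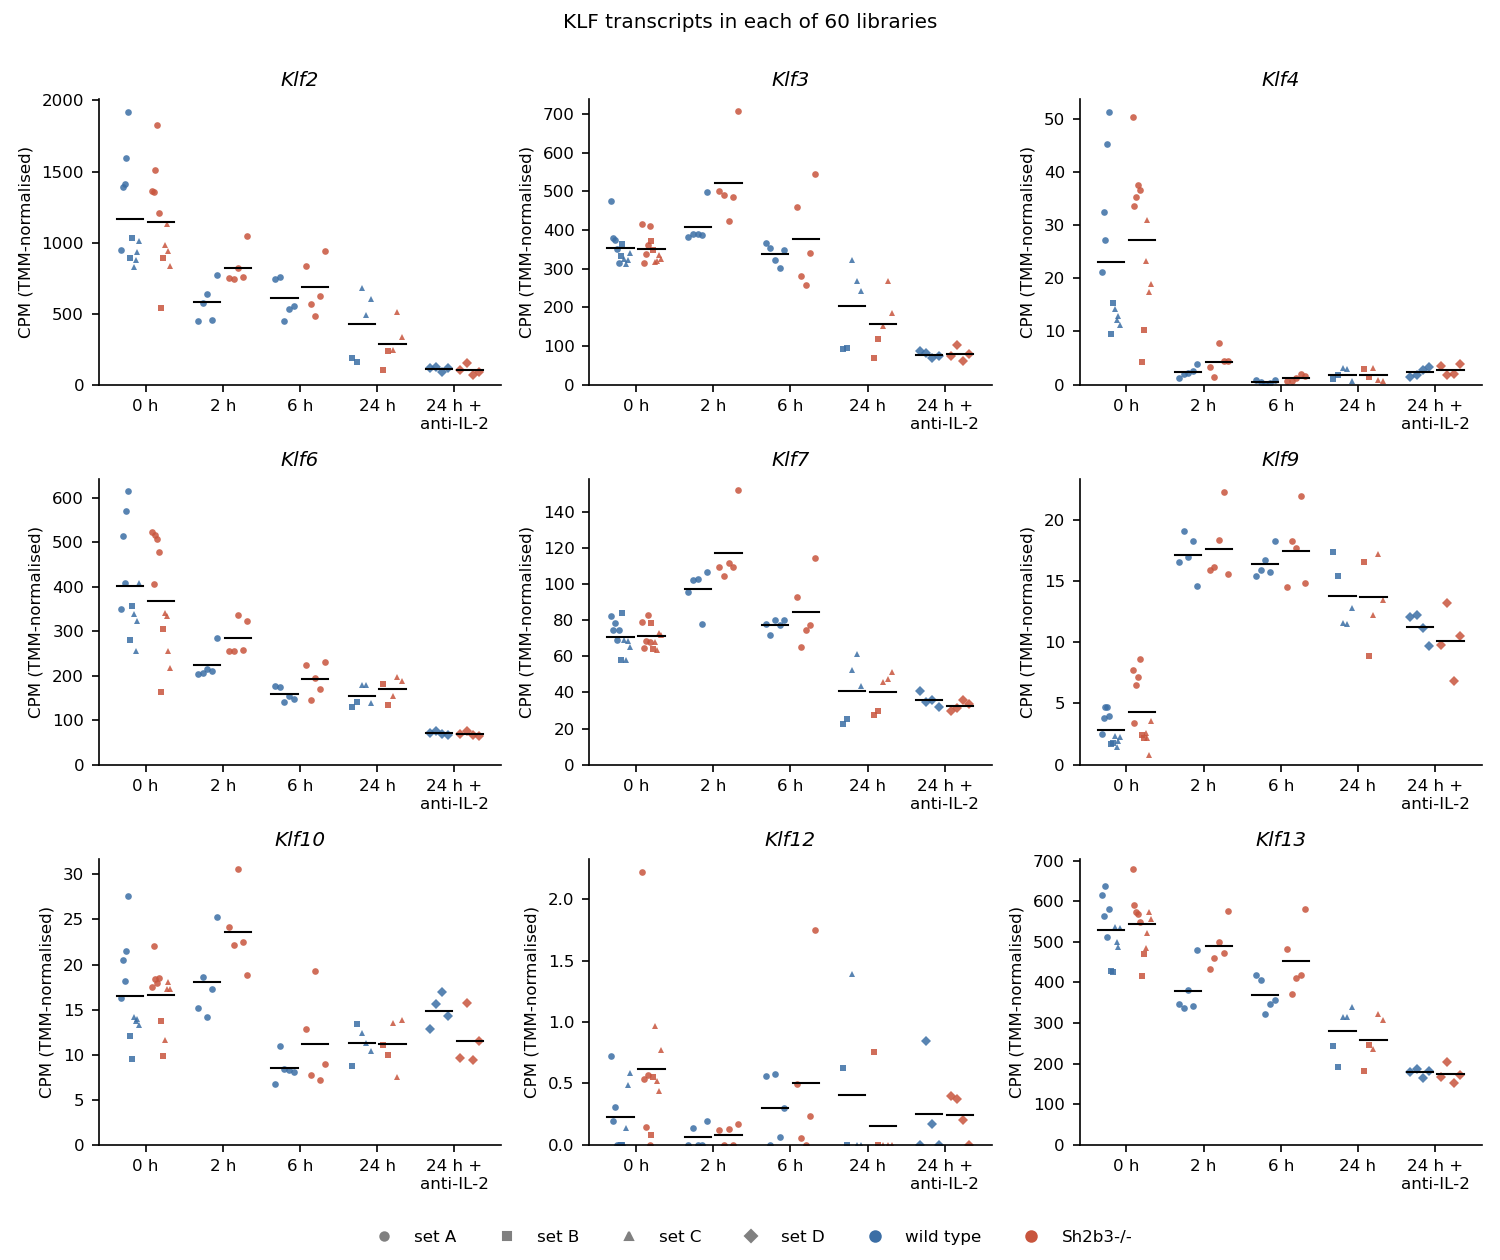
Level of each of the 9 KLF genes (CPM, 1 panel per gene) in every library of the 10 groups, wild type and knockout, with the library set shown by the marker shape and the group mean by a black line. Klf2 falls from a resting median of 1010 CPM in wild type to 70.5 to 151 CPM with anti-IL-2 in both genotypes, Klf4 is lowest at 6 h, and Klf9 is above its 0 h range in all stimulated groups of wild type cells.

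Stimulation changed most of the family within 2 h. In wild type cells 6 of the 8 members tested were called at 2 h against 0 h, 2 higher and 4 lower, where 63.6% of all genes tested were called, 30.3% higher and 33.3% lower. At 6 h the count was 6 of 8 (1 higher, 5 lower) against 56.7% of all genes (28.5% higher, 28.2% lower), and at 24 h it was 7 of 8 (1 higher, 6 lower) against 59.3% (29.2% higher, 30.1% lower). The members were thus called about as often as other genes. The median log2 difference of the members was -0.42, -0.91 and -0.75 at 2, 6 and 24 h, beside -0.06, -0.01 and -0.05 for all genes. In knockout cells 7 of 8 members were called at 2 h (3 higher, 4 lower), beside 57.6% of all genes (28.4% higher, 29.2% lower). There 6 of 9 were called at 6 h (1 higher, 5 lower), beside 46.3% (23.2% higher, 23.1% lower), and 7 of 9 at 24 h (1 higher, 6 lower), beside 60.8% (30.5% higher, 30.3% lower). In bulk RNA, fewer cells that express a gene and less RNA per cell cannot be told apart. The same resting libraries serve each of these comparisons within a genotype.

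**Figure D2:**
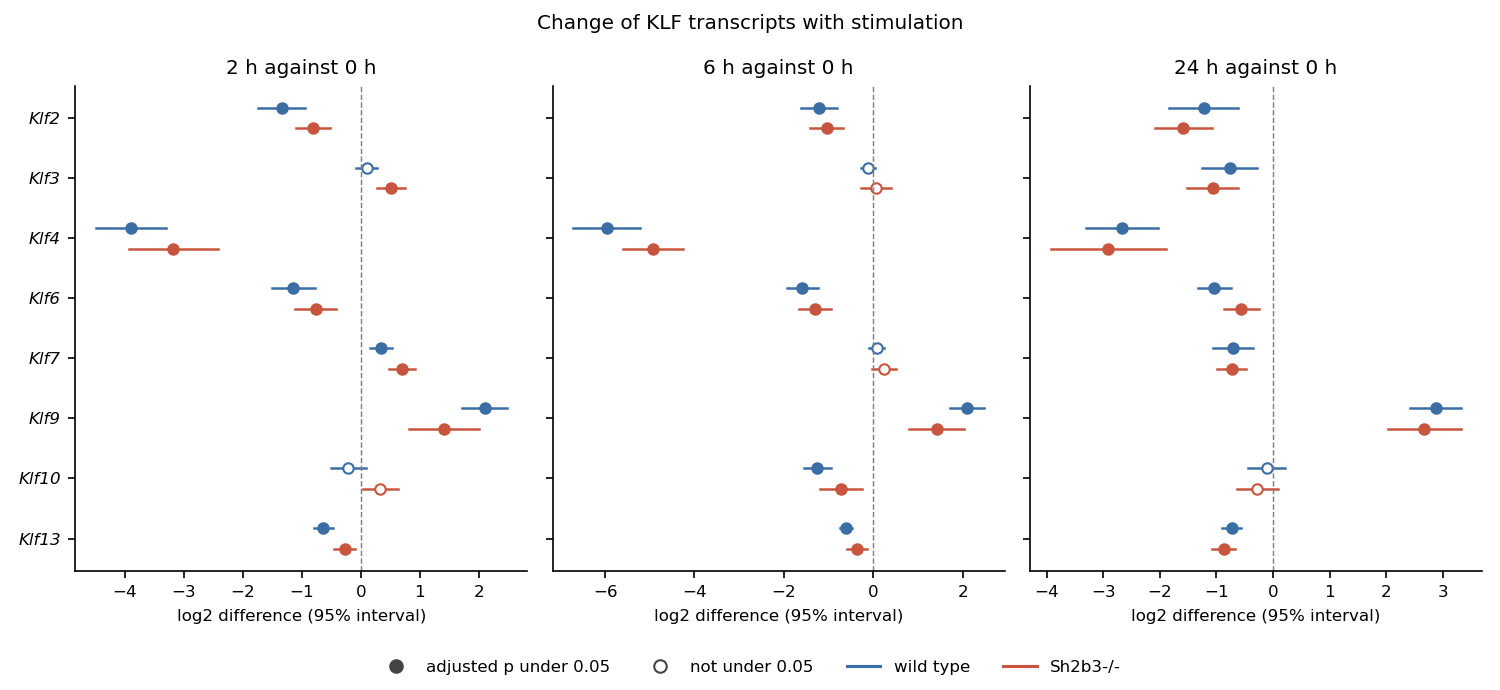
Log2 difference from 0 h (horizontal axis, with 95% interval) of the KLF genes other than Klf12 (vertical axis), in separate panels for 2, 6 and 24 h. Wild type is blue and knockout red, and filled points have an adjusted p under 0.05. Klf4 reaches -5.97 at 6 h in wild type, Klf9 lies between 2.09 and 2.87 in wild type, and Klf3 and Klf7 are below 0 only at 24 h among the called points.

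Klf2, the factor that keeps naive T cells quiescent and circulating, fell at every time. In resting wild type libraries its level ran from 828.6 to 1921 CPM with a median of 1010, and in knockout libraries from 538 to 1827 CPM with a median of 1131. The wild type libraries at 2 h stood at 448, 577, 637, 455 and 775 CPM and the knockout libraries at 751, 743, 821, 758 and 1048 CPM. Every wild type library at 2 h lay below the lowest resting one. In knockout the ranges overlapped over all sets, but within set A, which holds all 2 h libraries, resting knockout libraries held 1206 to 1827 CPM and lay above all those at 2 h. The log2 difference from 0 h was -1.34 (SE 0.19, adjusted p = 2.4e-05 in edgeR's quasi-likelihood test) in wild type and -0.81 (SE 0.14, adjusted p = 6.14e-05) in knockout; the latter was -0.47 and not called without the set term (adjusted p = 0.0603). At 6 h the wild type libraries held 747, 759, 451, 529 and 556 CPM and the knockout libraries 834, 567, 485, 622 and 943 CPM. These levels were close to those at 2 h, with a log2 difference from 2 h of 0.11 (SE 0.18, adjusted p = 0.653) in wild type and -0.19 (SE 0.18, adjusted p = 0.422) in knockout.

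At 24 h the level of Klf2 depended on the library set. Wild type libraries of set C held 681, 490 and 605 CPM and those of set B 186 and 162 CPM; knockout libraries of set C held 243, 512 and 336 CPM and those of set B 99.4 and 237 CPM. The sets did not overlap in either genotype, but in knockout they nearly met, at 237 CPM in set B and 243 CPM in set C. The log2 difference from 0 h was -1.22 (SE 0.28, adjusted p = 0.00177) in wild type and -1.59 (SE 0.24, adjusted p = 2.21e-05) in knockout. Fitted within sets, the wild type value was -2.38 for set B and -0.59 for set C, and the knockout value -1.97 and -1.37, all called. From 6 to 24 h the fitted difference was -0.01 (SE 0.39, adjusted p = 0.995) in wild type and -0.55 (SE 0.33, adjusted p = 0.215) in knockout. What distinguishes the sets is not given in the sources used here, and its part in these values was not tested.

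Klf4, which restrains cycling of naive CD8 T cells, showed the largest fall among the 9 genes. It held 9.53 to 51.3 CPM (median 15.4) in resting wild type libraries and 4.23 to 50.4 CPM (median 31.1) in resting knockout libraries. By 2 h wild type libraries held 1.23, 2.06, 2.11, 2.65 and 3.85 CPM and the knockout libraries 3.3, 1.41, 7.75, 4.44 and 4.41 CPM. At 6 h the wild type libraries were down to 0.862, 0.533, 0.0572, 0.359 and 0.884 CPM, which is 1 to 17 counts per library, and the knockout libraries to 0.67, 0.637, 1.21, 2.08 and 1.6 CPM. All libraries at 2 and 6 h lay below every resting wild type library. Relative to 0 h the log2 difference was -3.89 (SE 0.28, adjusted p = 7.12e-10) at 2 h and -5.97 (SE 0.35, adjusted p = 6.54e-11) at 6 h in wild type; in knockout it was -3.18 (SE 0.35) and -4.93 (SE 0.32). At 24 h Klf4 was back at 3.05, 2.85, 0.652, 1.09 and 1.81 CPM in wild type and 3.15, 0.832, 0.599, 3.02 and 1.5 CPM in knockout. Its log2 difference from 6 h was 3.30 (SE 0.52, adjusted p = 3.64e-05) in wild type and 1.99 (SE 0.64, adjusted p = 0.0226) in knockout. No set holds both 6 and 24 h, so these fits join them through the resting libraries; without the set term the values were 1.80 in wild type and 0.67 in knockout, the latter not called (adjusted p = 0.379).

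Klf6 and Klf7, closely related in their zinc fingers, took different courses. Klf6 held 255 to 616 CPM (median 357) in resting wild type and 164 to 523 CPM (median 340) in resting knockout cells. At 2 h it stood at 204, 207, 216, 211 and 285 CPM in wild type and 255, 256, 337, 257 and 324 CPM in knockout, and at 6 h at 177, 174, 141, 153.9 and 148 CPM in wild type and 223, 146, 194, 169 and 230 CPM in knockout. All wild type libraries at 6 h lay below the resting ones. At 2 h the ranges overlapped over all sets, but not within set A, where resting libraries held 350 to 616 CPM in wild type and 405 to 523 CPM in knockout. The log2 difference from 0 h in wild type was -1.14 (SE 0.17, adjusted p = 4.38e-05) at 2 h, -1.59 (SE 0.16, adjusted p = 1.1e-06) at 6 h and -1.04 (SE 0.14, adjusted p = 2.06e-06) at 24 h. In knockout it was -0.76 (adjusted p = 0.000792; -0.37 and not called without the set term, adjusted p = 0.204), -1.31 (adjusted p = 5.79e-06) and -0.56 (adjusted p = 0.00299). The last was -0.62 within set C and -0.47 within set B, where it was not called (adjusted p = 0.188). Klf7 rose first and fell later. Its wild type level was 57.7 to 83.8 CPM (median 69) at rest and 95.5, 102, 103, 78 and 107 CPM at 2 h, and the knockout level was 63.5 to 82.9 CPM (median 68.7) at rest and 109, 104, 112, 110 and 151.9 CPM at 2 h. The knockout libraries at 2 h all lay above the resting ones, and 4 of the 5 wild type libraries did. The log2 difference at 2 h was 0.35 (SE 0.09, adjusted p = 0.00119) in wild type and 0.70 (SE 0.11, adjusted p = 7.16e-06) in knockout. At 24 h it was -0.71 (SE 0.17, adjusted p = 0.00113) and -0.73 (SE 0.12, adjusted p = 2.93e-05). Within sets, Klf7 at 24 h in wild type differed from 0 h by -1.49 in set B and by -0.28 in set C, the latter not called (adjusted p = 0.07).

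Klf3, a CtBP-dependent repressor, was higher at 2 h only in the knockout fit and lower at 24 h in both genotypes. It held 311 to 476 CPM (median 341) in resting wild type and 315 to 415 CPM (median 338) in resting knockout cells. At 2 h the wild type libraries held 382, 389, 389, 386 and 497 CPM and the knockout libraries 501, 492, 422, 485 and 708 CPM. All 5 knockout libraries at 2 h exceeded every resting knockout library. The log2 difference at 2 h was 0.10 (SE 0.09, adjusted p = 0.324) in wild type and 0.51 (SE 0.11, adjusted p = 0.000601) in knockout, and their difference, 0.37 (SE 0.13), did not pass the test (adjusted p = 0.242). At 24 h the wild type libraries held 324, 268 and 243 CPM in set C and 92.3 and 94.6 CPM in set B; the knockout libraries held 150, 268 and 186 CPM in set C and 67.8 and 117 CPM in set B. The log2 difference from 0 h was -0.77 (SE 0.23, adjusted p = 0.00884) in wild type and -1.07 (SE 0.21, adjusted p = 0.000343) in knockout. As with Klf2, the sets stood apart: the wild type difference was -1.82 within set B but -0.19 within set C, the latter not called (adjusted p = 0.111).

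Klf9, the glucocorticoid-inducible member, was the 1 gene of the 9 that rose and stayed high. Resting libraries held 1.4 to 4.73 CPM (median 2.32) in wild type and 0.773 to 8.61 CPM (median 3.39) in knockout. After 2 h wild type libraries held 16.6, 19, 17, 18.3 and 14.6 CPM and the knockout libraries 15.9, 16.1, 18.3, 22.3 and 15.6 CPM. At 6 h they held 15.4, 15.9, 16.7, 15.7 and 18.3 CPM in wild type and 14.5, 18.3, 17.7, 21.9 and 14.8 CPM in knockout. The stimulated libraries at 2, 6 and 24 h lay above every resting library of either genotype. In wild type the log2 rise from 0 h was 2.10 (SE 0.18, adjusted p = 2.25e-11) at 2 h, 2.09 (SE 0.19, adjusted p = 7.51e-11) at 6 h and 2.87 (SE 0.22, adjusted p = 2.21e-10) at 24 h. In knockout it was 1.41 (SE 0.28), 1.42 (SE 0.29) and 2.67 (SE 0.31), all called. Resting set A libraries averaged more Klf9 than those of sets B and C, 4.0 against 1.7 and 2.0 CPM in wild type and 6.7 against 2.3 and 2.3 CPM in knockout. At 24 h the wild type libraries held 11.6, 11.5, 12.8, 17.3 and 15.4 CPM, close to or below those at 2 h, and the larger log2 values at 24 h are measured against the lower resting levels of sets B and C. Of 10 other glucocorticoid-inducible genes 9 were tested in wild type, and 3 rose and 6 fell at 2 h (median -0.49), beside 30.3% and 33.3% of all genes. Among those that fell were Dusp1, a MAP kinase phosphatase, by 3.37 on the log2 scale, and Tsc22d3, a classic glucocorticoid target, by 1.26.

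Klf10, a TGF-beta-inducible member, was lower at 6 h than at 0 and 2 h. Resting libraries held 9.53 to 27.6 CPM (median 14.2) in wild type and 9.83 to 22 CPM (median 17.5) in knockout. At 2 h the wild type libraries held 15.2, 18.6, 14.2, 17.3 and 25.2 CPM and the knockout libraries 24.1, 22.2, 30.6, 22.5 and 18.8 CPM. At 6 h the values were 6.74, 11, 8.35, 8.25 and 8.08 CPM in wild type and 12.8, 7.7, 19.3, 7.23 and 8.96 CPM in knockout. Over all sets the 6 h range overlapped the resting range in both genotypes. Within set A, resting wild type libraries held 16.3 to 27.6 CPM, above every wild type library at 6 h, and resting knockout libraries 17.5 to 22 CPM, overlapping with those at 6 h. From 0 to 2 h the log2 difference was -0.21 (SE 0.15, adjusted p = 0.212) in wild type, where without replicate 5 at 2 h it was -0.36 and was called (adjusted p = 0.0287). In knockout it was 0.33 (SE 0.14, adjusted p = 0.0547). Within set A alone, without the set term, or without replicate 5 at 2 h it was called, at 0.31 to 0.51. With DESeq2's size factors or Wald test it was called as well. The log2 difference from 2 to 6 h was -1.05 (SE 0.17, adjusted p = 2.5e-05) in wild type and -1.01 (SE 0.26, adjusted p = 0.00989) in knockout, and from 0 to 6 h it was -1.25 (SE 0.15, adjusted p = 2.76e-08) and -0.72 (SE 0.23, adjusted p = 0.0139). At 24 h Klf10 did not differ from 0 h by the test (-0.12, SE 0.16, adjusted p = 0.548 in wild type and -0.28, SE 0.17, adjusted p = 0.176 in knockout); without the set term the difference was -0.47 in each genotype and was called. Of 11 genes of the TGF-beta pathway, all tested, 10 rose and 1 fell at 2 h in wild type (median 0.53), beside 30.3% and 33.3% of all genes, and 2 rose and 6 fell at 24 h (median -0.29), beside 29.2% and 30.1%. Tgif1, a SMAD corepressor, rose by 2.80 at 2 h, and Smad7, an inhibitor of the pathway, fell by 0.56 at 2 h and 1.53 at 24 h on the log2 scale.

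Klf13, the Ccl5 activator, was lower at every stimulated time. Resting libraries held 425 to 638 CPM (median 533) in wild type and 416 to 679 CPM (median 556) in knockout. Wild type libraries at 2 h held 346, 338, 381, 343 and 481 CPM and knockout libraries 434, 462, 501, 474 and 576 CPM. All but 1 wild type library at 2 h lay below the resting ones of all sets, and all 5 lay below those of set A (513 to 638 CPM). Knockout libraries at 2 h lay within the resting range over all sets and overlapped with that of set A (548 to 679 CPM). Relative to 0 h Klf13 differed by -0.63 (SE 0.08, adjusted p = 4.68e-08) at 2 h, -0.61 (SE 0.07, adjusted p = 9.03e-09) at 6 h and -0.73 (SE 0.08, adjusted p = 5.73e-08) at 24 h in wild type. In knockout it was -0.27 (adjusted p = 0.00989), -0.36 (adjusted p = 0.00982) and -0.87 (adjusted p = 9.71e-08), of which the first was -0.16 and the second -0.25 without the set term, neither called (adjusted p = 0.139 and 0.0582). Of 3 known KLF13 targets 2 were tested, and both rose in wild type at 24 h, where 29.2% of all genes rose. Ccl5 rose by 1.34 (SE 0.24) and Bcl2l1, a survival gene, by 2.91 (SE 0.19). These rises are given without regard to whether KLF13 activates or represses the gene, and its part in them was not tested.

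Between the stimulated times, 5 of 8 members were lower at 6 h than at 2 h in wild type, where 47.2% of all genes were called and 23.7% were lower: Klf3, Klf4, Klf6, Klf7 and Klf10. The smallest of these, Klf3 at -0.23 (SE 0.08, adjusted p = 0.0194), was lost without wild type replicate 5 at 2 h or replicate 4 at 6 h. In knockout 3 of 8 were lower, Klf4, Klf6 and Klf10, beside 34.2% of all genes called and 16.1% lower. With library numbers 10 apart as a replicate block 5 were lower, Klf3 (-0.44, adjusted p = 0.0017) and Klf7 (-0.42, adjusted p = 0.00086) having joined, and 5 were also called without knockout replicate 5 at 6 h. From 6 to 24 h, 5 of 9 members were called in wild type (4 higher, 1 lower) beside 30.7% of genes (15.8% higher, 14.9% lower). In knockout it was 6 of 9 (3 higher, 3 lower) beside 31.3% (16.3% higher, 15.1% lower). Klf7 fell in both genotypes, by 0.79 and 0.99 on the log2 scale. Without the set term the calls were 1 higher (Klf4) and 3 lower (Klf3, Klf7 and Klf13) in wild type, and 0 higher and 4 lower (Klf2, Klf3, Klf7 and Klf13) in knockout. The rise of Klf10 in wild type, 1.14 (SE 0.23, adjusted p = 0.00036), was then 0.42 and not called (adjusted p = 0.132). The falls of Klf3 (-0.72) and Klf13 (-0.39) in wild type and of Klf2 (-1.22) in knockout were called without the set term and not with it; with it but with no filter on low counts, those of Klf3 and Klf2 were called as well (-0.67 and -0.57). The rises of Klf6 (0.55 and 0.74) and Klf9 (0.78 and 1.24) turned to -0.04 and -0.11 and to -0.25 and -0.29 without the set term, none called, so their direction rests on how the sets are joined.

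At rest, the library sets that differed in Klf2 also differed in the immediate early genes, which respond within minutes to receptor signals or to handling of cells. The summed level of 16 such genes ran from 4501 to 9688 CPM in wild type libraries of set A, 3028 to 3772 CPM in set B and 3481 to 4280 CPM in set C. In knockout libraries it ran from 5722 to 8451, 1385 to 3052 and 3666 to 5371 CPM. Klf2 averaged 1452, 959 and 912 CPM in sets A, B and C of wild type and 1452, 713 and 972 CPM in knockout. The resting library with the smallest sum, 1385 CPM, had the least Klf2 (538 CPM), Klf4 (4.23 CPM) and Klf6 (164 CPM) of all resting libraries, and the one with the largest sum, 9688 CPM, the most (1921, 51.3 and 616 CPM). Klf3 was not ordered in this way. Within each genotype set A lies above sets B and C in the sum, and the sets hold 5, 2 and 4 libraries of a genotype, so the relation was not tested. The falls of Klf2, Klf4 and Klf6 after stimulation start from these resting levels. Fos, the leading immediate early gene, averaged 1029 CPM at rest in wild type and 83.6, 39.3 and 9.75 CPM at 2, 6 and 24 h. The sum of the 16 genes did not follow Fos at 2 h. In wild type it averaged 5355 CPM at rest and 6191, 4152 and 2031 CPM at 2, 6 and 24 h. In knockout it averaged 5181 CPM at rest and 7415, 4228 and 2196 CPM at these times. The part of the immediate early genes in the falls of Klf2, Klf4 and Klf6 was not tested.

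**Figure D3:**
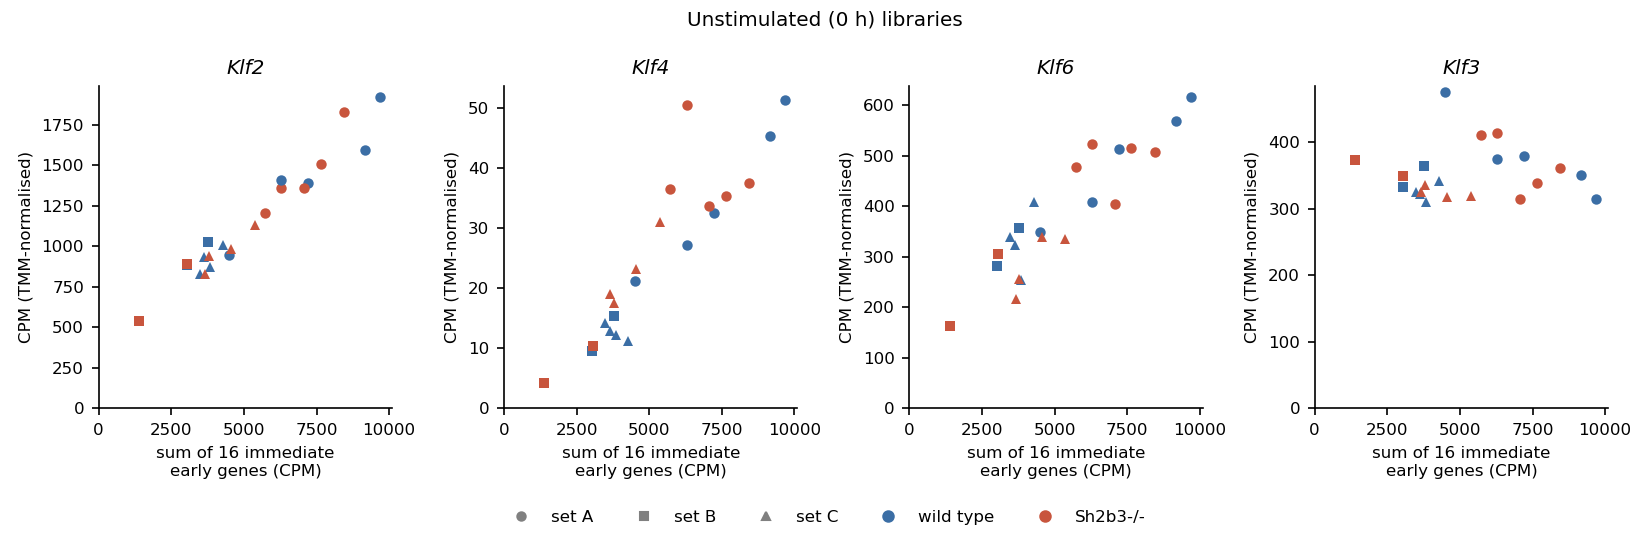
Level of Klf2, Klf4, Klf6 and Klf3 (CPM, vertical axis) against the summed level of 16 immediate early genes (CPM, horizontal axis) in the 22 resting libraries, by genotype and library set. Libraries of set A lie to the right of sets B and C within each genotype and higher for Klf2 on average (1452 CPM in each genotype).

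With all libraries and the filter on low counts, no KLF gene passed the threshold between genotypes in any of the 5 conditions. At 0 h 0 of 8 members were called beside 0.633% of all genes. At 2 h 0 of 8 were called beside 0.0647%, at 6 h 0 of 8 beside 0.0306%, at 24 h 0 of 8 beside 0.372%, and with anti-IL-2 0 of 8 beside 0.35%, by edgeR's quasi-likelihood test. DESeq2's Wald test also called 0 in each. With no filter on low counts, edgeR called Klf3 (adjusted p = 0.0249), Klf6 (adjusted p = 0.0102) and Klf13 (adjusted p = 0.00346) at 2 h. That fit also called Klf2 at 24 h (adjusted p = 0.00199). At an unadjusted p under 0.05 in edgeR the counts were 1, 7, 1, 0 and 0 of 8. The share of all genes at that unadjusted level was not counted, so these counts cannot be set against it. At 2 h all 8 members had a log2 difference above 0, with a median of 0.36 beside 0.01 for all genes. The members were measured in the same libraries, so these are not 8 separate observations. At 2 h Klf2 differed by 0.51 (95% interval 0.18 to 0.84, adjusted p = 0.243), with all 5 knockout libraries above all but 1 of the wild type libraries. Klf13 differed by 0.37 (SE 0.10, adjusted p = 0.212), Klf6 by 0.35 (SE 0.11, adjusted p = 0.255), Klf3 by 0.35 (SE 0.13, adjusted p = 0.281) and Klf4 by 0.83 (SE 0.38, adjusted p = 0.373). Klf10 differed by 0.38 (SE 0.16), Klf7 by 0.27 (SE 0.11) and Klf9 by 0.04 (SE 0.13). For each of the 8 genes the ranges of the genotypes overlapped. Without wild type replicate 5 at 2 h, the highest wild type library for Klf2, Klf3, Klf4, Klf6, Klf7, Klf10 and Klf13, the difference of Klf13 was 0.46 and was called (adjusted p = 0.044). Over all fits without 1 library it ran from 0.30 to 0.46, beside 0.40 to 0.62 for Klf2 and 0.21 to 0.42 for Klf3.

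**Figure D4:**
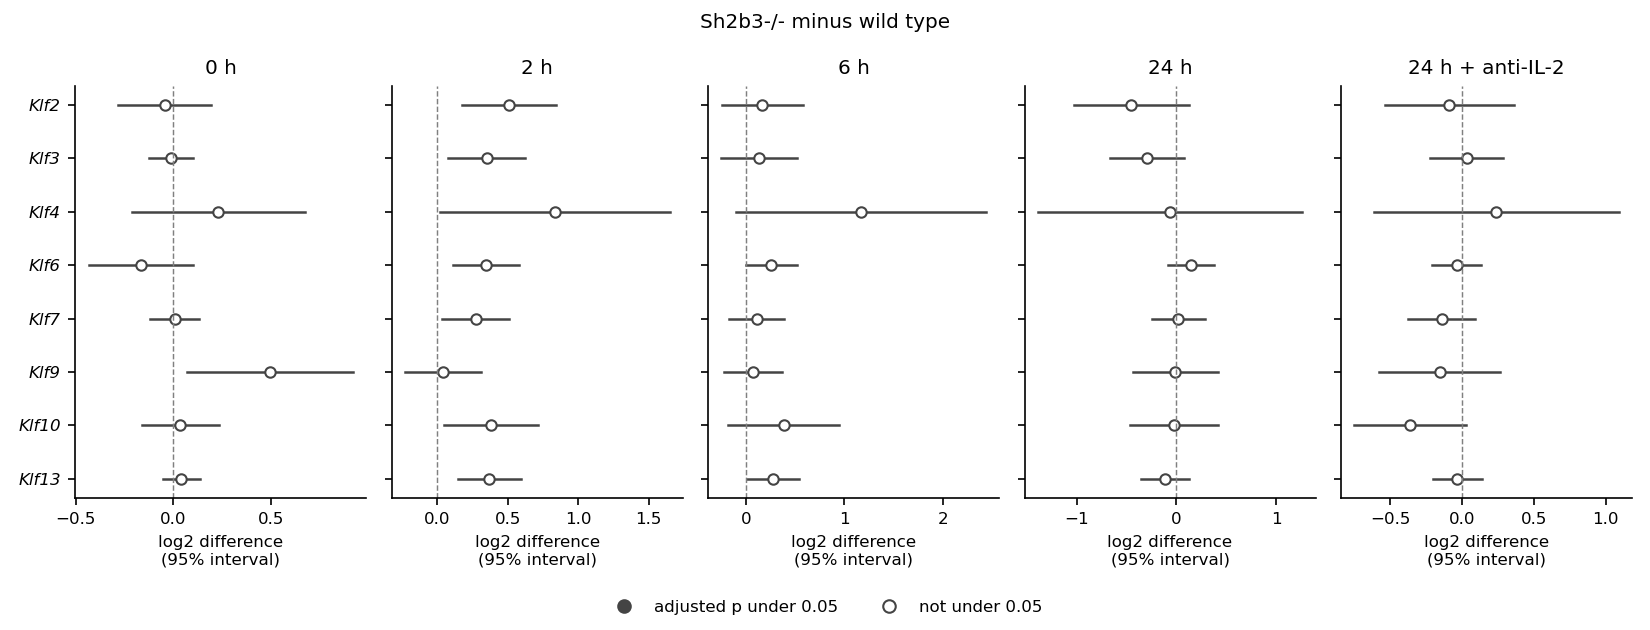
Knockout minus wild type log2 difference of 8 KLF genes with 95% intervals (horizontal axis) in resting cells, at each stimulated time and with anti-IL-2; all points are open because none had an adjusted p under 0.05. At 2 h the 8 values lie between 0.04 and 0.83, and at 24 h between -0.45 and 0.15.

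At the other times the differences between genotypes were smaller than their intervals, or nearly so. At 0 h they lay between -0.17 for Klf6 and 0.50 for Klf9 (SE 0.21, adjusted p = 0.374). Within set C alone, resting knockout cells held more Klf4, by 0.84 (adjusted p = 0.013), whereas the difference was 0.13 in set A and -0.79 in set B, neither called. Erythroid markers in resting set C summed to 43.4 to 139 CPM in knockout and 10.1 to 73.8 CPM in wild type libraries. Those of neutrophils summed to 1.66 to 3.93 and 0 to 2.14 CPM, and of monocytes and macrophages to 12.2 to 19.2 and 10.3 to 16.4. B cell markers summed to 30.6 to 57.0 and 23.1 to 45.3 CPM, while CD4 and regulatory T cell markers averaged 11.97 and 12.14. The 16 immediate early genes summed to 3666 to 5371 and 3481 to 4280 CPM. The part of these in the Klf4 difference was not tested. At 6 h all 8 were above 0, the largest being Klf4 at 1.17 (SE 0.59, adjusted p = 0.903) on very few counts. At 24 h Klf2 differed by -0.45 (95% interval -1.02 to 0.12, adjusted p = 0.54), and without knockout replicate 5 of that group, the higher of its set B libraries in Klf2, the difference was -0.74 and was called (adjusted p = 0.035). Over all fits without 1 library the Klf2 difference ran from -0.74 to -0.29. With anti-IL-2 the values lay between -0.36 and 0.24. The genotype by time interaction at 2 h called 0 of 8 members, as it called 0% of all genes, and 5 had an unadjusted p under 0.05: Klf2 (0.56, SE 0.21), Klf3 (0.37), Klf6 (0.52), Klf7 (0.27) and Klf13 (0.33, SE 0.10, adjusted p = 0.185), the last reaching 0.44 and being called without wild type replicate 5 at 2 h (adjusted p = 0.0152). Over all fits without 1 library the Klf13 value ran from 0.26 to 0.44. With no filter on low counts, edgeR called Klf2 (adjusted p = 1.65e-05), Klf3 (adjusted p = 0.0376) and Klf6 (adjusted p = 0.000182) for this interaction. The interaction called 0 of 9 at 6 h beside 0% of genes, where 2 had an unadjusted p under 0.05. At 24 h it called 0 of 9 beside 0.113%, where none had. For the interactions, too, the share of all genes at that unadjusted level was not counted.

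Blocking IL-2 went with lower levels of 4 members in wild type cells, Klf2, Klf3, Klf6 and Klf13, and of 3 of these in knockout cells. In wild type 4 of 8 members were called, all lower, beside 4.4% of all genes (1.8% higher, 2.6% lower); in knockout it was 3 of 8, all lower, beside 5.27% (2.37% higher, 2.9% lower). The median difference was -0.47 in wild type and -0.50 in knockout, beside 0.01 and -0.01 for all genes. Anti-IL-2 libraries are all of set D and untreated ones of sets B and C, so the antibody and the library set cannot be told apart. The comparison with each untreated set alone is therefore given as well.

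With anti-IL-2, Klf2 stood at 118, 122, 90.5 and 116 CPM in wild type and 106, 151, 70.5 and 91.3 CPM in knockout. All wild type libraries lay below the lowest untreated one of 162 CPM, but in knockout they overlapped with the set B libraries of 99.4 and 237 CPM. The log2 difference was -1.94 (SE 0.39, adjusted p = 0.0186) in wild type and -1.45 (SE 0.37, adjusted p = 0.0439) in knockout. Against set C alone it was -2.44 and -1.81, both called; against set B alone it was -0.63 (adjusted p = 0.000389) in wild type and -0.68 in knockout, not called (adjusted p = 0.499). With no filter on low counts the difference of Klf2 was not called in either genotype (adjusted p = 0.125 in wild type and 0.184 in knockout).

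Klf6 was the member whose fall held in every such comparison. It stood at 70.7, 75.2, 69.9 and 66.9 CPM with anti-IL-2 in wild type and 68.7, 76.2, 66.9 and 63.5 CPM in knockout. Untreated wild type libraries held 179, 179 and 139 CPM in set C and 129 and 142 CPM in set B, and untreated knockout libraries 153.6, 197 and 189 CPM in set C and 181 and 133.6 CPM in set B. No treated library reached an untreated one in either genotype. The log2 difference was -1.12 (SE 0.12, adjusted p = 0.000746) in wild type and -1.31 (SE 0.12, adjusted p = 0.00012) in knockout. It was -0.93 and -1.18 against set B alone and -1.26 and -1.40 against set C alone, and it was called in each of these and without each single library.

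Klf13 stood at 180, 188, 164 and 180 CPM with anti-IL-2 in wild type and 166, 204, 152.2 and 173 CPM in knockout, beside 191 to 340 CPM and 182 to 322 CPM untreated. The wild type ranges did not overlap and the knockout ranges did. The log2 difference was -0.66 (SE 0.15, adjusted p = 0.0336) and -0.57 (SE 0.16, adjusted p = 0.0498), and against set B alone it was -0.28 (adjusted p = 0.043) and -0.29 (adjusted p = 0.231). Against set C alone it was -0.89 and -0.75, both called, and with DESeq2's size factors the knockout value missed the threshold (adjusted p = 0.0544). Klf3 stood at 86.4, 80.5, 68.4 and 74.4 CPM in wild type and 73.8, 102, 61.8 and 78.2 CPM in knockout. All wild type libraries with anti-IL-2 were below the untreated ones. Its log2 difference was -1.41 (SE 0.34, adjusted p = 0.0399) in wild type and -1.0 (SE 0.30, adjusted p = 0.0721) in knockout; against set B alone it was -0.27 and -0.22, neither called, and against set C alone -1.87 and -1.36, both called (adjusted p = 6.28e-08 and 0.000824). With no filter the wild type call of Klf3 was lost (adjusted p = 0.194). In wild type the 4 called members were also those whose treated and untreated ranges did not overlap, beside 11.3% of all genes, and in knockout this held for Klf6 alone, beside 10.4%. Leaving out single libraries ended the calls of Klf2, Klf3 or Klf13 in most cases, and 1 to 4 members were then called in either genotype. In wild type, 1 was called without any 1 of the 4 treated libraries or untreated replicate 3, and 2 without untreated replicate 1 or 2. In knockout, 1 was called without untreated replicate 1, 2, 3 or 5 or treated replicate 1, 3 or 4.

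The other members did not pass the test. Klf7 differed by -0.20 in wild type and -0.32 in knockout, Klf9 by -0.29 and -0.43, Klf10 by 0.40 and 0.05, and Klf4 by 0.30 and 0.60. Klf7 in wild type was higher with anti-IL-2 than in set B (0.59, adjusted p = 0.00864) and lower than in set C (-0.58, adjusted p = 0.00481). In knockout the Klf7 difference was 0.19 against set B, not called, and -0.59 against set C (adjusted p = 0.00998). Klf4, Klf9 and Klf10 were called against neither set in either genotype. The genotype by anti-IL-2 interaction called 0 of 9 members beside 0% of all genes, and 0 had an unadjusted p under 0.05.

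**Figure D5:**
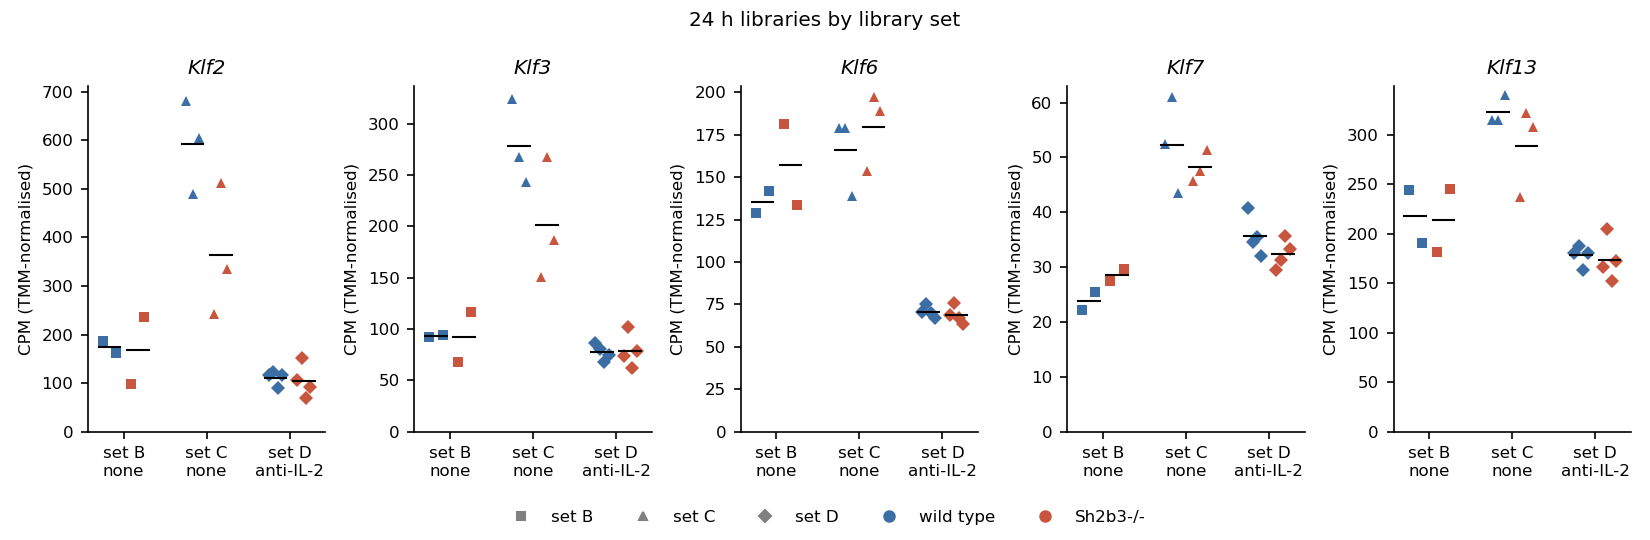
Level (CPM) of Klf2, Klf3, Klf6, Klf7 and Klf13 at 24 h in untreated libraries of sets C and B and in anti-IL-2 libraries of set D, wild type and knockout, 1 point per library. For Klf2, Klf3, Klf7 and Klf13 the untreated set B libraries of wild type lie closer to set D than to set C, whereas for Klf6 both untreated sets, at 129 CPM or more, lie above all treated libraries, at 76.2 CPM or less.

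Genes of T cell trafficking and the naive state, among them known targets of KLF2 and FOXO1, changed in both directions. Of 15 trafficking and naive-state genes, all tested, 4 rose and 9 fell at 2 h in wild type (median -0.23), and 3 rose and 11 fell at 24 h (median -0.77), where 30.3% and 29.2% of all genes rose and 33.3% and 30.1% fell. In knockout 5 rose and 5 fell at 2 h (median -0.03), and 3 rose and 11 fell at 24 h (median -1.06), where 28.4% and 30.5% of all genes rose and 29.2% and 30.3% fell. The list and Klf2 share libraries, so this is a side-by-side description. S1pr1, the receptor for exit from lymph nodes, fell by 0.23 on the log2 scale at 2 h and by 0.77 at 24 h in wild type. Itgb7, an integrin subunit, fell by 2.77 at 2 h and by 1.62 at 24 h. Foxo1 itself fell by 0.67 and 1.03. Ccr7, the lymph node homing receptor, went the other way, rising by 1.18 and 0.62, and Il7r, the IL-7 receptor chain, rose by 0.73 at 2 h with a difference of 0.32 at 24 h that was not called. With anti-IL-2, 6 of the 15 were lower and 1 was higher in wild type (median -0.71), beside 2.6% and 1.8% of all genes, and 4 were lower and 0 higher in knockout (median -0.49), beside 2.9% and 2.37%. S1pr1 differed by -1.75 (SE 0.36, adjusted p = 0.0211) in wild type and -1.15 (SE 0.38, adjusted p = 0.106) in knockout. S1pr1 split by set as Klf2 did: untreated wild type libraries at 24 h averaged 114 CPM of S1pr1 in set B and 347 CPM in set C.

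Of 16 quiescence and antiproliferative genes, all tested, 3 rose and 11 fell at 24 h in wild type (median -0.54), beside 29.2% and 30.1% of all genes, and 3 rose and 10 fell in knockout, beside 30.5% and 30.3%. Txnip, a brake on glucose uptake, fell by 1.56 and Btg1, an antiproliferative gene, by 0.76 in wild type, while Cdkn1a, the cell cycle inhibitor p21, rose by 3.79. With anti-IL-2, 3 were lower in wild type and 2 in knockout, beside 2.6% and 2.9% of all genes, among them Btg1 (-0.75 and -0.68) and Txnip (-1.28 and -1.03) in both. Of 8 genes known to rise without KLF2, 5 were tested in wild type, and 3 rose and 2 fell at 2 h and 2 rose and 1 fell at 24 h, beside 30.3% higher and 33.3% lower at 2 h and 29.2% and 30.1% at 24 h over all genes. Il2rb, an IL-2 receptor chain, rose by 0.96 and 0.87, and Cxcr3, a chemokine receptor of effector cells, by 0.52 and 0.60, while Sgk1, a kinase, fell by 2.49 and 2.56. In resting cells Cxcr3 was higher in the knockout by 1.35 (SE 0.26, adjusted p = 0.02), where 0.633% of all genes were called. Klf2 differed there by -0.05 (SE 0.11, adjusted p = 0.937). The other genes of this list are not described for that comparison, so Cxcr3 does not stand for the list.

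Among 19 genes for KLF cofactors and turnover, 18 were tested in wild type, and 10 rose and 3 fell at 2 h (median 0.30) and 4 rose and 7 fell at 24 h (median -0.12), where 30.3% and 29.2% of all genes rose and 33.3% and 30.1% fell. The kinase ERK5, encoded by Mapk7, and the factors Mef2a and Mef2d are known to drive Klf2 through a MEF2 site in its promoter, and the MEF2 box found by sequence is printed above. Mapk7 rose by 0.68 at 2 h and fell by 0.74 at 24 h, Mef2d rose by 0.36 and fell by 0.74, and Mef2a rose by 0.21 and fell by 0.67, while Klf2 was lower at both times. Fbxw7, a ubiquitin ligase subunit that targets KLF2, rose by 0.55 and 0.45. Of the 17 other KLF and SP genes 7 were tested in wild type, and 3 rose and 2 fell at 2 h and 1 rose and 3 fell at 24 h, beside the same shares. Klf16 rose by 0.83 at 2 h and 0.48 at 24 h, Sp1 rose by 0.51 at 2 h, and Sp2 fell by 0.52 and 0.57. None of these relatives was called with anti-IL-2 in either genotype (0 of 8).

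Across the 10 group means, some members followed almost the same course. The Pearson correlation of log2 level was 0.991 between Klf2 and Klf13, 0.953 between Klf2 and Klf6, and 0.945 between Klf2 and Klf3, while Klf4 and Klf9 were opposed at -0.883. These values describe 10 means that share depth and library sets, and they carry no test. Among 9665 genes, those most like Klf2 were Pik3ip1 (0.995), an inhibitor of PI3K signalling, S1pr4 and Frat1, and those most like Klf13 were Klf2, Txnip (0.989) and Rnf166. Klf6 was closest to Pced1b (0.989), Cdc42se1 and Ctdsp1, Klf7 to Lemd2 (0.997), Zfyve27 and Rundc3b, and Klf3 to Gpr146, Rflnb and Rasa3. Klf4 was closest to Ctsw (0.985), Coq10a and Sipa1, Klf9 to Sema7a (0.984), Aar2 and Mul1, and Klf10 to Lasp1 (0.972), Hnrnpul2 and Paf1. For Klf12, near 0 in most libraries, the closest gene reached 0.847 (Fastk).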

How the data were processed

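The authors deposited raw counts of reads per gene for 60 libraries in 1 table, with no normalization. Per the submitters' processing notes, the tools were FastQC 0.119.9, STAR 2.7.9a, SAMtools, Picard 2.42.2 and featureCounts 2.0.1 of Subread, with GRCm39; strandedness is not given in the sources used here, so antisense or overlapping reads are not separated. RNA kits were from Qiagen or Zymo, per the labels' protocols, without saying which library had which. Gene names and exon lengths came from GENCODE M21, which named 52081 of 55414 genes with 99.57% of the counts. It describes GRCm38, so no gene coordinates are given from it; promoters carry the RefSeq table's own build.

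Each comparison was fitted on its own libraries with edgeR 4.0.16 under R 4.3.3: filterByExpr with a minimum count of 10, TMM scaling, the robust quasi-likelihood F test, Benjamini-Hochberg adjustment over all genes tested, and a threshold of 0.05. SEs were derived from the fold change and F, and intervals are 95%. There were 21 comparisons: 5 of genotype, 10 of time, 2 of anti-IL-2 and 4 interactions. Levels used TMM factors over all 60 libraries, and log2 levels a prior count of 2. The members, gene lists and comparisons were chosen with earlier results of these data known. All 9 members are named; from each list up to 4 genes are named, called ones first by smallest adjusted p, and S1pr1, Ccr7, Il7r, Itgb7 and Foxo1 always; Mapk7, Mef2a, Mef2d, Fbxw7, Tsc22d3, Smad7, Sp2 and Btg1 are named for their known roles, some after their values were seen. 1 further gene of that rule is not reported here. Like genes were the 3 with the highest correlation among genes averaging 4 CPM or more.

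Within groups no pair of libraries agreed within sampling noise (smallest chi-square per degree of freedom 6.88). Library numbers 10 apart in set A might mark a shared source. Their deviations correlated above 0.1 in all 5 pairs (0.117 to 0.561) for knockout cells at 2 and 6 h, so the block is given there; in the other 5 comparisons of times within set A at least 1 pair stayed under 0.1. Tested on simulated counts, the fit recovered 75% of genes changed by 1 log2 unit and 94% of those changed by 2 for genotype at 2 h, and 62% and 77% for the anti-IL-2 comparison of wild type cells. Alternatives were DESeq2 1.42.0 size factors and its Wald test, no filter, a 1.5-fold minimum, no set term, single sets, the block, and leaving out libraries. Knockout libraries numbered 8, 18 and 28 were also left out together, and anti-IL-2 was set against each untreated set, both chosen after seeing the data.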

Additional observations from a re-analysis of the deposited data

Results flagged for a closer look

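In groups of 4 or 5 libraries, 7 of 72 gene and group combinations had a library far from the others of its group by Dixon's criterion, where chance gives about 1 in 20. Of these, 5 were the replicate numbered 5 at 2 h. In knockout cells it held 1048 CPM of Klf2 where the next library held 821, 708 CPM of Klf3 where the next held 501, and 151.9 CPM of Klf7 where the next held 112. In wild type cells it held 497 CPM of Klf3 where the next held 389, and 285 CPM of Klf6 where the next held 216. The others concerned Klf12 near its detection limit: knockout replicate 5 at 6 h at 1.75 CPM and knockout replicate 4 at 24 h at 0.756 CPM, the remaining 4 of the latter group at 0.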

How the results depend on the processing

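Of 2580 recomputed differences of single genes, 2463 stayed on the same side of the threshold, 83 of them with a change of sign while called in neither fit; 69 calls were lost, 43 were gained and 5 reversed. DESeq2's size factors, its Wald test and leaving out knockout libraries 8, 18 and 28 together kept every count of members called within 1.5 times of the main count. Without the filter, 3 members were called for knockout against wild type at 2 h (Klf3, Klf6 and Klf13), 1 at 24 h (Klf2), 3 for genotype by time at 2 h, and 2 for wild type with anti-IL-2, with more genes in the fit. In set C alone 1 was called at 0 h (Klf4). Anti-IL-2 in knockout called 1 member against untreated set B alone and 5 against set C alone. A minimum change of 1.5-fold left 2 for 6 h against 2 h in wild type. The replicate block called 5 members for 6 h against 2 h in knockout, where the pairing held, and moved no other count beyond 1.5 times. Reversed values were Klf7 for anti-IL-2 in wild type against set B alone (0.59), and, without the set term, 24 h against 6 h for Klf6 (-0.036 in wild type, -0.11 in knockout) and Klf9 (-0.25 and -0.29). The cause was not tested.

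Leaving out 1 library at a time, the members called for genotype numbered 0 to 1 at 2 h and at 24 h and 0 to 0 at 6 h and with anti-IL-2. For anti-IL-2 they numbered 1 to 4 in each genotype, and 0 to 0 for its interaction with genotype. In wild type they numbered 6 to 7 at 2 h, 6 to 6 at 6 h and 7 to 7 at 24 h against 0 h, 4 to 5 for 6 h against 2 h and 4 to 5 for 24 h against 6 h. In knockout they numbered 8 to 9 at 2 h, 6 to 7 at 6 h and 7 to 8 at 24 h against 0 h, 3 to 5 for 6 h against 2 h and 5 to 7 for 24 h against 6 h. At 2 h in knockout Klf12, not tested in the main fit, joined without any 1 of the 5 libraries, and Klf10 joined without replicate 5. Klf12 held 0 to 3 counts per knockout library at 2 h and 0 to 30 at rest. It thus passed the filter through resting libraries alone, and no change is claimed from its call. Genotype by time gave 0 to 1 at 2 h and 0 to 0 at 6 and 24 h. Depth limits Klf12 and, at 6 h, Klf4.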
